A study of Mus musculus with 12 samples.

Results

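The nuclear genes of respiratory complexes II to V were described in mouse soleus, a slow and oxidative muscle of the calf. Genes were taken by symbol, as those that match Sdha to Sdhd, Cyc1 or a name that starts with Uqcr, with Cox and a digit from 4 to 8, or with Atp5, and that had at least 10 counts in at least 3 libraries. The rule used counts over all libraries and no difference between groups. Of the 24539 genes listed, 48 matched by symbol and 45 met the count rule, 4 for complex II, 9 for complex III, 16 for complex IV and 16 for complex V. The 3 that did not meet it were Atp5g2, with at most 6 counts in a library, Cox7b2, with at most 2, and Cox8c, with at most 1. All 45 were among the 13886 genes tested.

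RNA sequencing had been done on 12 libraries of C57BL/6 mice kept on chow, 3 in each of 4 groups. Wild type (WT) mice carried floxed alleles of Dnmt3a, which encodes a de novo DNA methyltransferase, and knockout (KO) mice are called MCK-Dnmt3a KO in the labels; mice of either genotype were sedentary or had exercised. MCK commonly stands for muscle creatine kinase, and Cre driven by its promoter acts in striated muscle fibres, so other cells of the muscle would keep the gene. The sources used here do not give the exercise protocol, the time from exercise to dissection or the age and sex of the mice. Within each group the letters a, b and c follow column order and only name a library. WT exercise a and KO exercise a have 2 animal numbers in their column names, and no source used here says whether animals were pooled.

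Complex II (succinate dehydrogenase) passes electrons from succinate to ubiquinone, complex III passes them on to cytochrome c, and complex IV (cytochrome c oxidase) passes them to oxygen. Complexes III and IV pump protons across the inner mitochondrial membrane, and complex V (ATP synthase) lets them flow back and makes ATP. Some complex IV subunits have a form typical of heart and skeletal muscle, encoded by Cox6a2, Cox7a1 and Cox8b in the mouse, beside a form of most other tissues, encoded by Cox6a1, Cox7a2 and Cox8a.

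Total counts ran from 13329547 to 15480960 per library. Dnmt3a was lower in every KO than in every WT library, with 133 to 179.7 CPM (counts divided by the TMM-scaled library size, on a common scale) in the WT sedentary, 48.6 to 52.7 in the KO sedentary, 113 to 176 in the WT exercise and 57.4 to 60.5 in the KO exercise libraries. Myh7, the slow myosin heavy chain that defines slow fibres, stood at 7059 to 12453 CPM over the 12 libraries. One library stood apart in fibre and tissue markers: KO sedentary b had 5505 CPM of Myh4, the fastest myosin heavy chain, against at most 1741 elsewhere, and 329 CPM of albumin (Alb), a liver transcript. Alb also passed 100 CPM in WT exercise b and c, and was at most 20.6 CPM in the other 9. Fewer cells of a type and less RNA per cell cannot be told apart in RNA from whole muscle.

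Promoters are shown here for isoform pairs and for genes that carry a motif of a known regulator. RefSeq promoter windows (build GRCm38.p6, from 250 bases before to 50 after the annotated start) matched 32 of the 45 genes. Not matched were Atp5a1, Atp5f1, Atp5s, Atp5sl, Cox4i1, Cox4i2, Cox6a2, Cox6c, Cyc1, Sdhc, Uqcrb, Uqcrc2 and Uqcrq. Below, the 250 bases before the start are printed 5′ to 3′ on the gene's strand for a pair of muscle forms and their counterparts, with CpG dinucleotides, the main sites of DNA methylation, in capitals. They lie as follows: Cox7a1 at chr7:30183921-30184170 on the plus strand, Cox7a2 at chr9:79759854-79760103 on the minus strand, Cox8b at chr7:140900447-140900696 on the minus strand and Cox8a at chr19:7217617-7217866 on the minus strand.
Cox7a1: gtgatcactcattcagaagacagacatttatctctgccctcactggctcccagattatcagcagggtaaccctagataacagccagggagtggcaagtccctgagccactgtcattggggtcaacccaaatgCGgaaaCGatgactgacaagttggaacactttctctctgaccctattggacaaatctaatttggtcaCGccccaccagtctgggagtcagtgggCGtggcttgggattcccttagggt
Cox7a2: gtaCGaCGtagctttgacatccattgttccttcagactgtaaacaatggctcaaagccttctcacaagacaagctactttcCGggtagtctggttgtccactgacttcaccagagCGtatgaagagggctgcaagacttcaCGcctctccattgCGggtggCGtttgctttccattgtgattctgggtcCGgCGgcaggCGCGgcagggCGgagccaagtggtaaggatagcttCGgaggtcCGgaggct
Cox8b: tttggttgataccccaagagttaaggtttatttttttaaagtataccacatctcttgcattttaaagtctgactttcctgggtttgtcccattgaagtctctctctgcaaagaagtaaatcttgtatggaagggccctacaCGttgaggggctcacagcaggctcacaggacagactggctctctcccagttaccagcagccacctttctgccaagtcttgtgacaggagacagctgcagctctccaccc
Cox8a: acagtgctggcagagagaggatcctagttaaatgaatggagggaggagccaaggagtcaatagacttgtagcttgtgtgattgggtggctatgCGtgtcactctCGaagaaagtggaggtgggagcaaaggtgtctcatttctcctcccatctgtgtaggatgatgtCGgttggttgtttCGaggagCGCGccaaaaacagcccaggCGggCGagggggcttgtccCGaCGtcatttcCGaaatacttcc
Cox7a1 had 4 CpG and its counterpart Cox7a2 had 14, and Cox8b had 1 and its counterpart Cox8a had 11. CpG were counted in the 250 bases before the start. The median was 13 over the 35 windows of the 32 genes, and 6 over all 32851 windows. Methylation was not measured in these libraries.

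Motifs were searched on both strands of the full windows, overlapping matches included: GCGCATGC for NRF1, CCGGAAG for GABPA (also called NRF2, and unrelated to Nfe2l2), AAGGTCA for the estrogen-related receptors and AAGATGGC for YY1, factors known to bind nuclear genes of the respiratory chain. At least 1 NRF1 match was in the windows of 6 of the 32 genes (18.8%, against 2.71% of all windows), GABPA in 12 (37.5%, against 8.86%), the receptor motif in 5 (15.6%, against 4.72%) and YY1 in 2 (6.25%, against 2.75%). A gene with several windows was counted once, and a match is only a run of letters. The NRF1 and GABPA motifs each hold a CpG, and the windows of these genes had more CpG, as given above. Their median share of G and C was 56%, against 52.7% over all windows. The part of base content in the motif shares was not tested. The next sequences show NRF1 and GABPA matches in capitals where they lie whole within the 250 bases before the start: Atp5k at chr5:108434400-108434649 on the minus strand, Cox6a1 at chr5:115348959-115349208 on the minus strand, Sdhb at chr4:140961021-140961270 on the plus strand and Uqcr11 at chr10:80406822-80407071 on the minus strand. These 4 genes and the 4 above were chosen after their windows had been seen.
Atp5k: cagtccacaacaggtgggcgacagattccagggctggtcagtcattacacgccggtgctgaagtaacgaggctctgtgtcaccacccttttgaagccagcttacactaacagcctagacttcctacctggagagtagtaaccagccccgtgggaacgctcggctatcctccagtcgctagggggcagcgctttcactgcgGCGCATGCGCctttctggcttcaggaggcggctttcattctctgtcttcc
Cox6a1: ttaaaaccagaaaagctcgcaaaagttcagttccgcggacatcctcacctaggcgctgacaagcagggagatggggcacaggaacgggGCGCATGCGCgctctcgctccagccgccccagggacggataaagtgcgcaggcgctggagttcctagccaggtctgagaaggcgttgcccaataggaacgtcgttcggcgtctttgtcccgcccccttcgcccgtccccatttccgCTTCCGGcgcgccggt
Sdhb: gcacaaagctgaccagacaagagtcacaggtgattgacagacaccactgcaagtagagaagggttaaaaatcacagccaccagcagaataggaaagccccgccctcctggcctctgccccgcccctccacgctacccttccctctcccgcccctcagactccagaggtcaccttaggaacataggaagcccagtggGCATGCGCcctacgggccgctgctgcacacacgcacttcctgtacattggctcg
Uqcr11: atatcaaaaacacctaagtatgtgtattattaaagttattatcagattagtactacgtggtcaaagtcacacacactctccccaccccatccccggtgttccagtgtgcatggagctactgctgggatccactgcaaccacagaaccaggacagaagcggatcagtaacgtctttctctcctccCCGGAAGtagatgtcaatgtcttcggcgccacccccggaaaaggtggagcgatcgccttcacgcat
The capitals of Atp5k and the left run of Cox6a1 each hold NRF1 matches on both strands that overlap. Sdhb has an NRF1 match on the opposite strand, Cox6a1 a GABPA match on the opposite strand close to its start, and Uqcr11 a GABPA match on its own strand.

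Levels were compared between genes per length, as CPM divided by the length of the gene in kilobases, where the length was that of the merged exons of its protein-coding transcripts in GENCODE M21. Most genes were abundant: 36 of the 45 had a mean above 100 CPM per kilobase over the 12 libraries. Within complex II the iron-sulfur subunit Sdhb was highest, at 655 CPM per kilobase, followed by the succinate-oxidising flavoprotein Sdha at 363. The membrane anchors Sdhd and Sdhc stood lower at 191 and 185, with ranges that overlapped each other and not that of Sdha. Complex III had the smallest ratio of its highest to its lowest gene. The highest, the core subunit Uqcrc1 at 642 CPM per kilobase, exceeded the lowest, the small subunit Uqcrq at 239, by 2.69 times. Uqcrq and Uqcrb overlapped, as did Uqcrc1 and Uqcr10 at the other end. Between them, the second core subunit Uqcrc2 stood at 429.7 CPM per kilobase, the Rieske iron-sulfur protein Uqcrfs1 at 415 and cytochrome c1 (Cyc1) at 375, and each overlapped the next.

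Complexes IV and V spanned the widest ranges. Cox6a2, the muscle form of subunit VIa, was the highest of all 45 at 3054 CPM per kilobase, and Cox8b, the muscle form of subunit VIII, stood at 1159.7. The early-assembling subunits Cox5a and Cox4i1 stood at 923 and 839.5 CPM per kilobase, with ranges that overlapped although Cox5a was the higher in every library, and Cox5b at 142. Cox7a2l, a relative of Cox7a2 that takes part in joining complexes III and IV, stood at 60.7. At the low end of complex IV were Cox7c at 6.00, Cox4i2 (the subunit IV isoform known from lung) at 4.90 and Cox6b2 (the isoform known from testis) at 0.987. In complex V the catalytic beta subunit Atp5b was highest at 2268 CPM per kilobase, above the alpha subunit Atp5a1 at 1127 in every library. The central stalk gamma subunit Atp5c1 stood at 496 and the peripheral stalk subunit Atp5o at 317. With the longest protein-coding transcript as the length, a choice made after seeing the data, Atp5o stood at 533 CPM per kilobase, close to Atp5c1, Cox7c at 9.57 and Cox6c at 163 (against 108); the levels of the other 42 genes moved by less than 1.5 times. The lowest gene of complex V was Atp5l, which encodes subunit g, at 1.46 CPM per kilobase and 5 to 17 counts a library. Atp5s and Atp5sl, matched by name but not subunits of the enzyme in the usual sense, stood at 7.24 and 30.03.

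**Figure D1:**
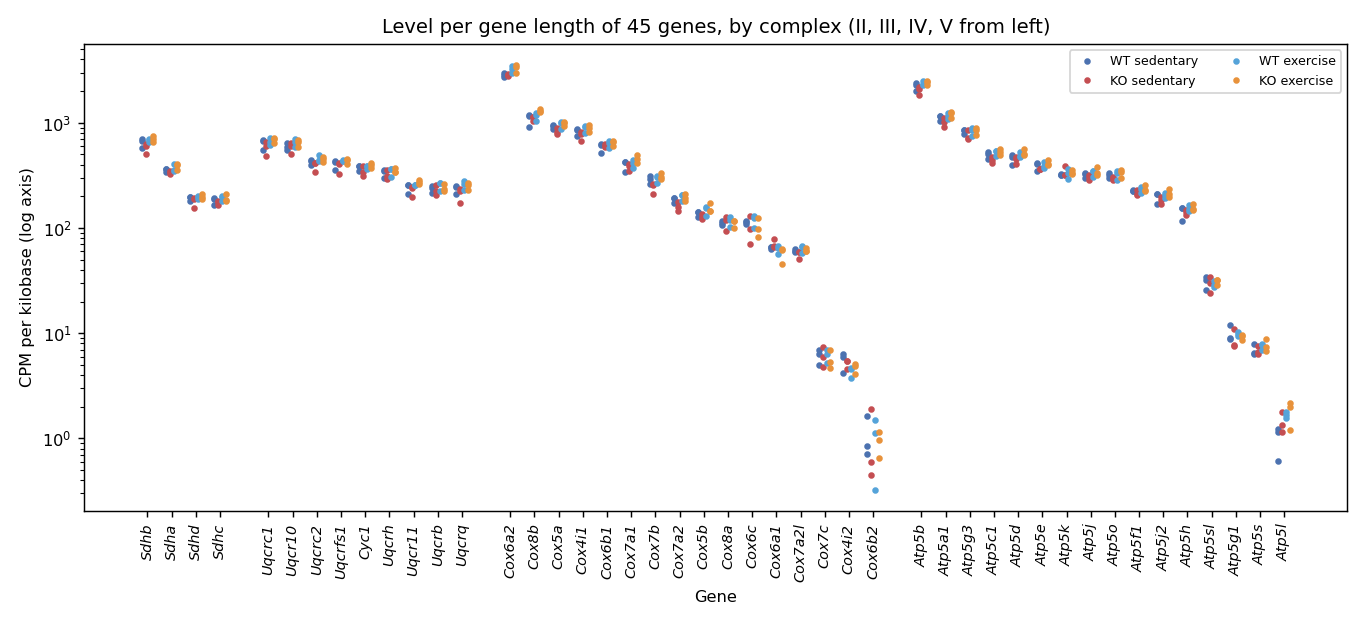
CPM per kilobase (log axis) of each of the 45 genes in the 12 libraries, by complex and sorted by mean; colours give the 4 groups. Cox6a2 at 3054 and Atp5b at 2268 CPM per kilobase lead, Cox6b2 and Atp5l are the lowest, and the 4 groups lie close together for most genes.

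Some low values are uncertain because transcripts resemble others. In the GENCODE M21 transcripts, the share of a gene's 50-base words that also occur in another gene was, for the protein-coding transcript with the highest share, 84.8% for Atp5l, 66.6% for Atp5h, 66.0% for Atp5g1, 63.0% for Atp5o, 53.0% for Cox7c, 43.4% for Uqcrb and 40.7% for Cox5b, and it was 0% for 19 of the 44 genes found there. It was 100% for Atp5g2. Over the words of all protein-coding transcripts of a gene together, the share was the same for Atp5l and Uqcrb. It was then 45.6% for Atp5o, 38.3% for Atp5g2, 36.9% for Atp5h, 23.0% for Cox7c, 21.8% for Cox5b and 11.1% for Atp5g1. No source used here says how reads that match several places were counted, and the part of this in the low values was not tested. Exons of 12 of the 45 genes overlap exons of another gene, in 11 of them on the opposite strand alone, among them Cox6a2 with Itgad, Atp5a1 with Haus1 and Cox4i1 with Emc8. Atp5o also overlaps Donson on its own strand and stands for 2 Ensembl genes. Nor do the sources say whether counting used strand.

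The muscle forms made up most of the RNA of their pairs in every library. Per length, Cox6a2 made up 97.2% to 98.7% of Cox6a1 and Cox6a2 together, Cox8b 88.7% to 92.9% of the Cox8 genes, and Cox7a1 66.1% to 72% of Cox7a1 and Cox7a2. Cox4i1 made up 99.2% to 99.6% of the Cox4i genes and Cox6b1 99.7% to 99.95% of the Cox6b genes. Of the genes for subunit c of complex V, which encode the same mature protein, Atp5g3 made up 98.5% to 99%, Atp5g1 1.02% to 1.52% and Atp5g2 at most 0.0273%. Transcripts of Atp5g1 and Atp5g2 share words with other genes, as given above, and those of Atp5g3 do not. The Atp5g shares also rest on the length taken. Atp5g1 was divided by 4912 bases, although a protein-coding transcript of it has 596, and Atp5g3 by 724. A shorter length would raise the Atp5g1 share. Before division by length, the means over the 12 libraries were 46.4 CPM for Atp5g1 and 591 for Atp5g3.

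Spread between libraries was described for the 45 genes alone and was not set against that of other genes. The within-group SD of the log2 level had a median of 0.123 over the genes and was largest for Cox6b2 at 0.892, with a mean of 11 counts. For 36 of the 45, the highest library was less than 1.5 times the lowest. The 45 genes together took 2.33% to 2.51% of all counts in 11 libraries and 2.06% in KO sedentary b. By group this share was 2.41% ± 0.0761 in WT sedentary, 2.28% ± 0.189 in KO sedentary, 2.41% ± 0.018 in WT exercise and 2.45% ± 0.0524 in KO exercise (SD, n = 3 each). KO sedentary b held the lowest level of 23 of the 45 genes and KO exercise c the highest of 19.

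With TMM factors, the genes shifted together within a library. The median over the 45 of the log2 level minus the gene's own mean was -0.24 in KO sedentary b, -0.15 in WT sedentary a, -0.10 in KO sedentary a and 0.15 in KO exercise c, and between -0.04 and 0.11 in the other 8. With total counts in place of TMM factors it was -0.21, -0.04, 0.01 and 0.07 in the named libraries, in the same order. The shifts of WT sedentary a and KO sedentary a thus depended on the scaling. In KO sedentary b the median with TMM factors was -0.33 for complex III, -0.22 for complex II, -0.22 for complex IV and -0.17 for complex V. There, 35 of the 45 genes were below their own mean, and Atp5k, subunit e of complex V, was among the others. Atp5k stood at 120.2, 119 and 118 CPM in the WT sedentary libraries, 117, 145 and 118 in the KO sedentary, 123, 109 and 136 in the WT exercise and 124, 121 and 132 in the KO exercise libraries. KO sedentary b was its highest library, and also that of Cox6b2, which had 3 to 22 counts a library.

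**Figure D2:**
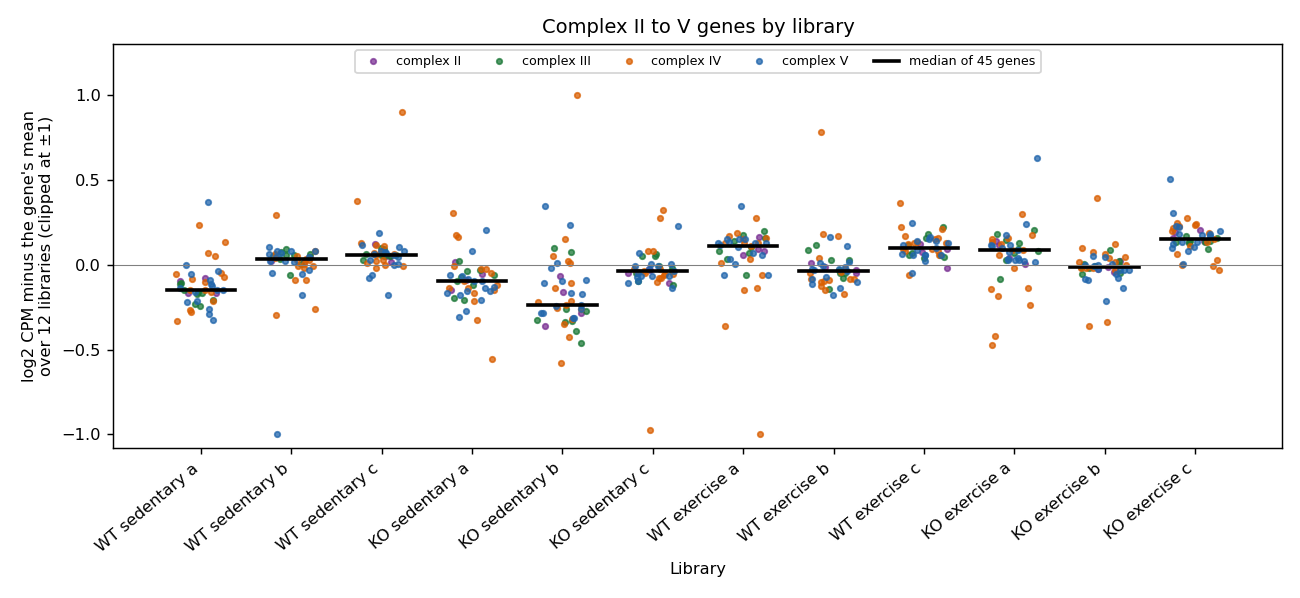
Log2 CPM minus the gene's mean over 12 libraries, 1 point per gene, coloured by complex, with the median as a bar; values beyond 1 in size are drawn at the limit. The bar is lowest in KO sedentary b (-0.24) and highest in KO exercise c (0.15), and groups overlap by library. With total counts in place of TMM factors these 2 medians were -0.21 and 0.07.

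Sedentary KO mice were compared with sedentary WT mice to ask what loss of Dnmt3a changes at rest. Most of the 45 genes were slightly lower in KO, and none passed the test: edgeR called 0 of 45 at an adjusted p under 0.05 (background 0.0288% of all genes tested), and DESeq2 (background 0.137%) and limma-voom (0.0216%) called none of them. Before adjustment, 2 of 45 had p under 0.05, both lower (background 1.63% lower, 4.83% in either direction). The log2 change was negative for 39 and positive for 6 of 45, with a median of -0.09, against a median of 0.00 and 50.7% positive over all genes. By complex the median was -0.09 for II, -0.09 for III, -0.09 for IV and -0.08 for V. The smallest unadjusted p were those of Cox7a2, Cox7b and the gamma subunit Atp5c1.

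Cox7a2, the general form of subunit VIIa (chromosome 9, 79755361 to 79759878, minus strand, GENCODE M21 on GRCm38), stood at 114, 128 and 127 CPM in the WT sedentary libraries, 104, 95.2 and 117 in the KO sedentary, 136, 119 and 135 in the WT exercise and 119, 127 and 138 in the KO exercise libraries. The KO sedentary libraries were the lowest group on average, and KO sedentary c lay within the WT sedentary range (log2 -0.22, SE 0.0954, adjusted p = 0.986). Cox7b, a small structural subunit of complex IV (chromosome X, 106015700 to 106022450, plus strand), stood at 264, 294 and 310.3 CPM in the WT sedentary libraries, 258, 211 and 264 in the KO sedentary, 315, 267 and 309 in the WT exercise and 294, 304 and 336 in the KO exercise libraries. All 3 KO sedentary libraries lay at or below the lowest WT sedentary library, with a gap smaller than the spread within either group, and KO sedentary b was lowest (log2 -0.25, SE 0.106, adjusted p = 0.986). Groups did not overlap, lower in KO, for this 1 gene of 45 (background 4.87%). Atp5c1 had 841 ± 55.4 CPM in KO against 941 ± 79.4 in WT (SD, n = 3 each; log2 -0.16, SE 0.0925, adjusted p = 0.986). Without KO sedentary b, the median of the 45 was -0.04, 12 were positive and 0 had an unadjusted p under 0.05; without WT sedentary b or c, or with these 2 groups fitted alone, the last count was also 0. It was 1 without KO sedentary a and 4 without KO sedentary c or without WT sedentary a, and the median was -0.15 without the latter. All of these were lower in KO. The share of all genes that were lower was not computed in these fits, so these counts have no background beside them.

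KO was then compared with WT after exercise. No gene of the 45 was called by edgeR (background 0.0216%), DESeq2 (0.0648%) or limma-voom (0.0216%), and 0 had an unadjusted p under 0.05 (background 3.38%). The log2 change was positive for 31 of 45 (46.8% over all genes), with a median of 0.03. That direction rested on single libraries: the median was -0.03 without KO exercise c and -0.02 without WT exercise b, with 18 of 45 positive in either case, 0.06 without KO exercise b, and -0.03 with 14 positive without the 3 libraries above 100 CPM of Alb. Cox8b (chromosome 7, 140898945 to 140900446, minus strand) had the smallest unadjusted p. It stood at 330.1, 425 and 414 CPM in the WT sedentary libraries, 408, 377 and 405 in the KO sedentary, 425, 375 and 443 in the WT exercise and 469.7, 452 and 486 in the KO exercise libraries. Every KO exercise library lay above every WT exercise library (log2 0.18, SE 0.101, adjusted p = 1), as for 1 more gene, Uqcr11, a small subunit of complex III, so 2 of 45 did not overlap, higher in KO (background 3.67%). Cox7a1 (log2 0.15, SE 0.11, adjusted p = 1) and Cox6a1 (log2 -0.16, SE 0.122, adjusted p = 1) came next, and their groups overlapped. Averaged over both conditions, edgeR called 0 of 45 (background 0.0576%), DESeq2 0 (0.238%) and limma-voom 0 (0.0576%), 0 had an unadjusted p under 0.05 (background 4.5%) and the median was -0.03 (-0.06 to -0.01 with 1 library left out). The smallest unadjusted p were those of Cox7a2 (log2 -0.12, SE 0.0674, adjusted p = 1), Atp5g1 (log2 -0.15, SE 0.106, adjusted p = 1) and Cox8b (log2 0.10, SE 0.0718, adjusted p = 1).

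Exercise was compared with sedentary in each genotype. In WT the log2 change was positive for 40 of 45 genes (51% over all genes), with a median of 0.06 against 0.00 over all genes, but with total counts in place of TMM factors 18 of 45 were positive and the median was -0.02, against -0.08 over all genes. Without WT sedentary a, 26 were positive and the median was 0.02. Other omissions raised the median, to 0.11 without WT exercise b or WT sedentary c. It was 0.13 without the 3 libraries above 100 CPM of Alb, which leaves only WT exercise a in its group. No gene of the 45 was called by edgeR (background 0.0216%), DESeq2 (0.879%) or limma-voom (0.0144%), and 0 had an unadjusted p under 0.05 (background 9.41%). Cox6a2 (chromosome 7, 128205435 to 128206387, minus strand) stood at 1849, 1943 and 2043 CPM in the WT sedentary libraries, 1881, 1918 and 1986 in the KO sedentary, 2351, 2010.5 and 2204 in the WT exercise and 2296, 2043 and 2401 in the KO exercise libraries. WT exercise b lay within the range of the sedentary libraries, and WT exercise a and c above it (log2 0.17, SE 0.0914, adjusted p = 0.612). Atp5l, at 5 to 17 counts a library, had the smallest unadjusted p and was the 1 gene of 45 with groups that did not overlap, higher (background 6.65%; log2 0.73, SE 0.388, adjusted p = 0.607). Without WT exercise b, 19 of 45 did not overlap, higher (14.5% of all genes). Cox4i2 had the next smallest unadjusted p after these, at 3.41 ± 0.38 CPM in exercised and 4.31 ± 0.89 in sedentary WT mice (SD, n = 3 each). Its log2 change was -0.33 (SE 0.197, edgeR adjusted p = 0.662).

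In KO mice the same comparison gave higher levels for most of the 45 genes, and again none passed the test after adjustment. The edgeR test called 0 of 45 and 0 of all genes (background 0%), DESeq2 called 0 of 45 (background 2.45%) and limma-voom 0 (background 0%). The log2 change was positive for 39 of 45 (48.5% over all genes), with a median of 0.17 against -0.01. At an unadjusted p under 0.05 there were 16 of 45 (background 17.9%), 15 higher (background 6.73%) and 1 lower (background 11.2%). In 18 of 45 every exercise library lay above every sedentary library (background 10.3%). By complex the median was 0.17 for II, 0.18 for III, 0.18 for IV and 0.17 for V, and 2 of 4, 1 of 9, 9 of 16 and 4 of 16 had an unadjusted p under 0.05.

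Cox7b had the smallest unadjusted p, and its 12 values are given above: its lowest KO exercise library exceeded its highest KO sedentary library (log2 0.35, SE 0.106, adjusted p = 0.162). Cox7a2 followed, with KO exercise a only slightly above KO sedentary c (log2 0.28, SE 0.0955, adjusted p = 0.188). Sdhb, the iron-sulfur subunit whose promoter is printed above (chromosome 4, 140961203 to 140979193, plus strand), stood at 663, 767 and 808 CPM in the WT sedentary libraries, 715, 579 and 689 in the KO sedentary, 792, 748 and 794 in the WT exercise and 805, 754 and 857 in the KO exercise libraries. KO exercise lay above KO sedentary in every library, the widest gap being to KO sedentary b (log2 0.28, SE 0.102, adjusted p = 0.204). Cox5a (log2 0.24, SE 0.087, adjusted p = 0.204) and Atp5c1 (log2 0.26, SE 0.0925, adjusted p = 0.204) did not overlap either.

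**Figure D3:**
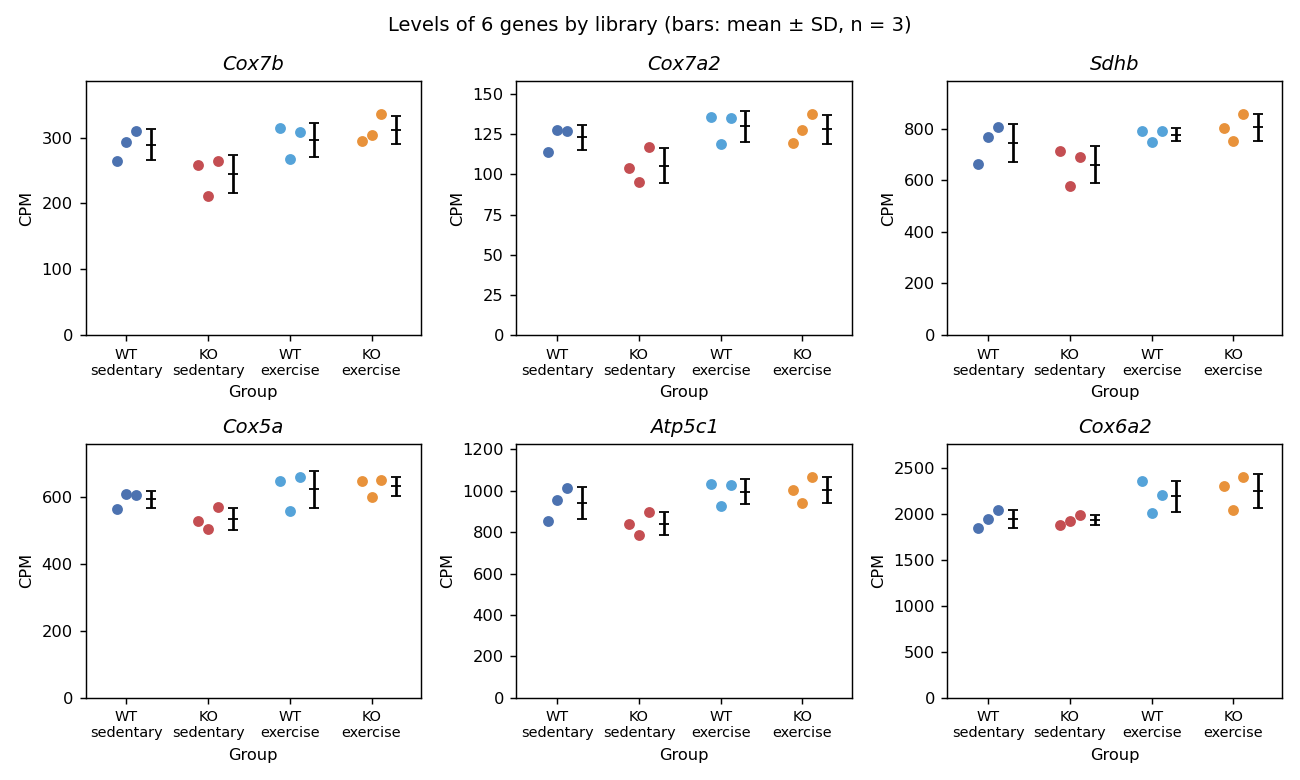
CPM of Cox7b, Cox7a2, Sdhb, Cox5a, Atp5c1 and Cox6a2 in each library by group, from 0, with mean ± SD (n = 3) as a bar. The KO sedentary points lie below the KO exercise points in all 6 genes, and KO sedentary b is the lowest of 12 libraries in all but Cox6a2.

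Core subunits differed by similar amounts in KO mice, and none passed the adjusted test. Sdha had 1121 ± 75.3 CPM after exercise and 981 ± 38.9 in sedentary mice (log2 0.19), and the log2 difference was 0.13 for Sdhc and 0.15 for Sdhd. In complex III it was 0.25 for Uqcrc1, 0.20 for Uqcrc2, 0.18 for Cyc1 and 0.17 for Uqcrfs1. In complex IV it was 0.23 for Cox4i1 and 0.26 for Cox5b. In complex V it was 0.26 for Atp5a1, 0.22 for Atp5b and 0.16 for Atp5o. In WT the log2 differences of these 12 genes were smaller, from 0.03 for Cyc1 to 0.12 for Uqcrfs1.

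The 6 genes with a negative log2 change in KO mice were Cox6a1, Cox4i2, Cox6b2, Cox7c, Cox8a and Atp5k, 5 of them in complex IV. Cox6a1, the general form of subunit VIa, was the 1 gene of 45 that did not overlap and was lower (background 12.5%). It stood at 38, 35.8 and 37.8 CPM in the WT sedentary libraries, 44.7, 37.6 and 38.2 in the KO sedentary, 32.7, 37.2 and 38.3 in the WT exercise and 26, 35.7 and 35.4 in the KO exercise libraries. KO exercise a was lowest, and WT exercise a, the other library with a pair of animal numbers, was next (log2 -0.31, SE 0.122, adjusted p = 0.228).

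The counts in KO mice rested on single libraries and on the scaling. At an unadjusted p under 0.05, 1 gene was higher without KO sedentary b (4.28% of all genes), 6 without KO exercise a (5.74%) and 4 without KO exercise c (3.21%). With the 2 KO groups fitted alone it was 9 (5.1%). The median ran from 0.14 without KO exercise c to 0.23 without KO sedentary c. The number that did not overlap, higher, was 33 without KO exercise b (18.1% of all genes), 27 without KO sedentary c (16.4%) and 24 without KO sedentary b (14.3%). With total counts in place of TMM factors the median of all genes was -0.12 and that of the 45 was 0.06, so the distance between them was 0.18 under either scaling. There, 1 gene was higher at an unadjusted p under 0.05 (1.65% of all genes) and 5 did not overlap, higher (3.32%).

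Markers of fibres and of other cells are given by the range of their summed level in each group. The 5 slow fibre genes (Myh7, Tnnt1, Tnni1, Tnnc1 and Myl3) summed to 18279.8 to 25569 CPM in the WT sedentary, 18604 to 22108 in the KO sedentary, 20181 to 27315 in the WT exercise and 24439 to 27321 in the KO exercise libraries. The KO exercise range lay above the KO sedentary range for this sum and for the sum of mitochondrial content given below. It lay below the KO sedentary range for the endothelial, liver, macrophage and fat sums. In WT, the exercise and sedentary ranges overlapped for all sums but the endothelial one, which was lower after exercise. The 3 endothelial genes, Pecam1, Cdh5 and Kdr, summed to 656 to 681 CPM in the WT sedentary, 581 to 669.5 in the KO sedentary, 453 to 534 in the WT exercise and 355 to 514 in the KO exercise libraries, and Pecam1 fell by 0.41 averaged over genotypes (log2, SE 0.0743, adjusted p = 0.0234). Genes of mitochondrial content outside the chain (Cs, Vdac1, Tfam and Tomm20) summed to 3049.9 to 3378 CPM in the WT sedentary, 2887 to 3117 in the KO sedentary, 3201 to 3706 in the WT exercise and 3188 to 3532 in the KO exercise libraries. The 6 fast fibre genes summed to 30052 to 33819.6 CPM in the WT sedentary, 25116 to 44373 in the KO sedentary, 28805 to 39353 in the WT exercise and 28669 to 35972 in the KO exercise libraries, and the 4 ranges overlapped. The 7 liver genes summed to 3.11 to 6.97 CPM in the WT sedentary, 16.9 to 428 in the KO sedentary, 3.94 to 282 in the WT exercise and 3.33 to 12.2 in the KO exercise libraries, the 3 red cell genes to 108 to 147 CPM in the WT sedentary, 127 to 339.7 in the KO sedentary, 105 to 174 in the WT exercise and 105 to 129.8 in the KO exercise libraries, the 3 macrophage genes to 29.9 to 53.1 CPM in the WT sedentary, 45 to 95 in the KO sedentary, 21.4 to 36.6 in the WT exercise and 19.5 to 38.5 in the KO exercise libraries and the 5 fat genes, with Ucp1 at 0 in 8 libraries, to 19.4 to 69.5 CPM in the WT sedentary, 36.3 to 50.4 in the KO sedentary, 20.1 to 41.4 in the WT exercise and 9.49 to 32.5 in the KO exercise libraries. Their part in the levels of the 45 genes was not tested.

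The test of whether the exercise difference itself depended on genotype called 0 of 45 with edgeR (background 0%), 0 with DESeq2 (0.158%) and 0 with limma-voom (0%), with 0 at an unadjusted p under 0.05 (background 3.1%). The larger values in KO than in WT mice were thus not shown to differ between genotypes. The interaction was positive for 36 of 45 (47.7% over all genes) with a median of 0.12, which was 0.07 without KO sedentary b, KO exercise c or WT exercise b, 0.18 without WT sedentary a, and 0.03 without the 3 libraries above 100 CPM of Alb. The smallest unadjusted p were those of Cox7b (log2 0.31, SE 0.149, adjusted p = 1), Sdhb (log2 0.22, SE 0.143, adjusted p = 1) and Cox6a1 (log2 -0.27, SE 0.172, adjusted p = 1). These comparisons share libraries.

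**Figure D4:**
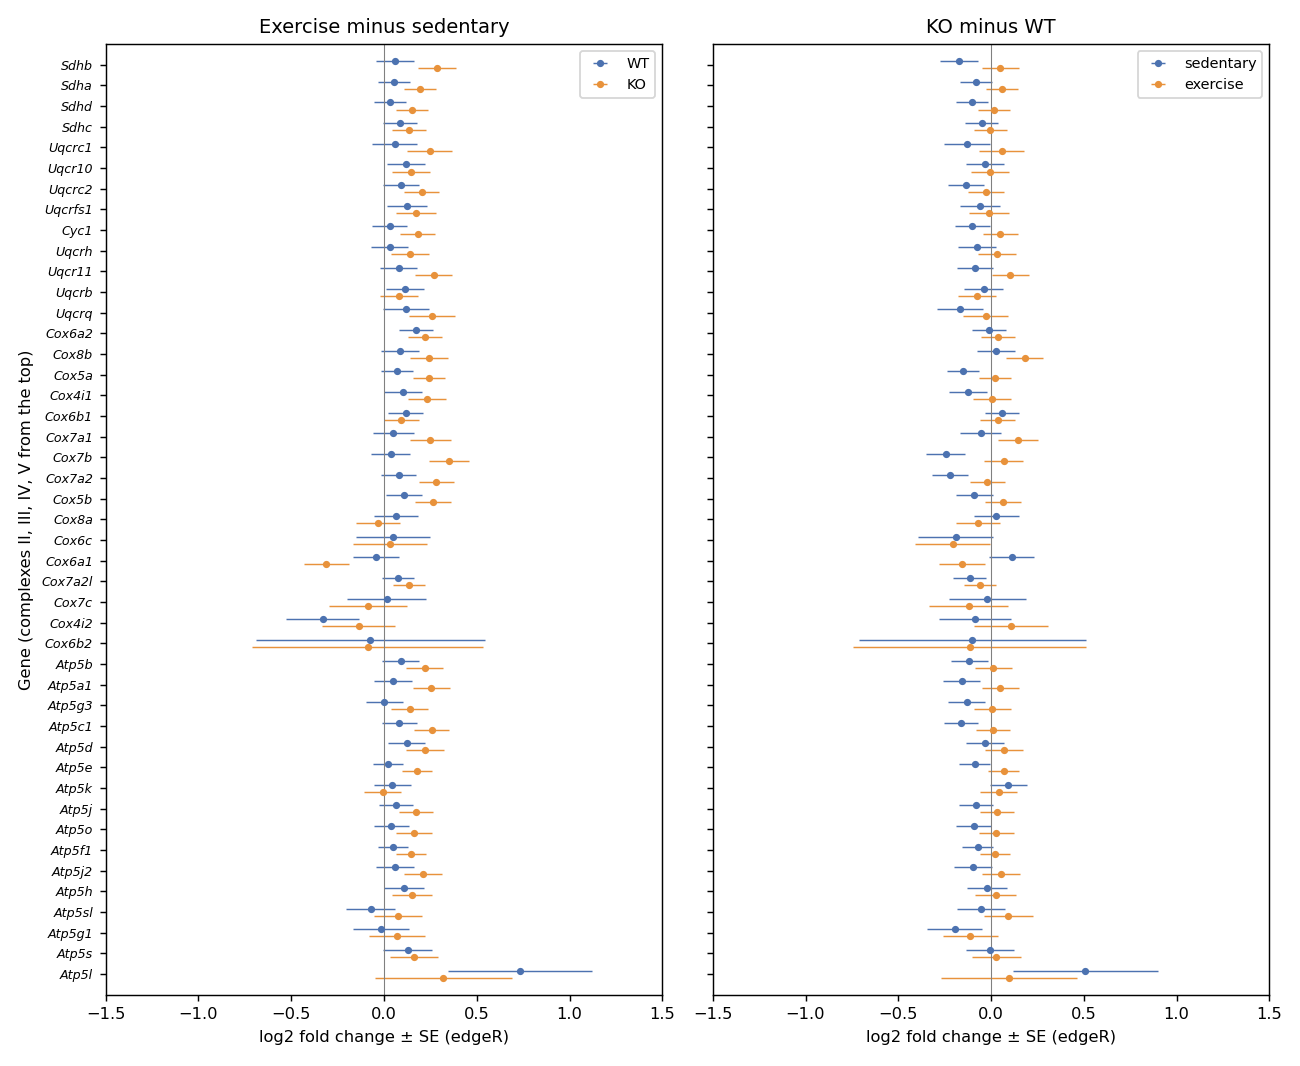
Log2 fold change ± SE (edgeR) of each gene; left, exercise minus sedentary in WT and in KO, right, KO minus WT in sedentary and in exercised mice. On the left the KO points lie mostly to the right of 0 (median 0.17) and the WT points nearer to it (median 0.06). With total counts in place of TMM factors these medians were 0.06 in KO and -0.02 in WT. On the right the sedentary points lie mostly to the left (median -0.09).

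Averaged over both genotypes, 41 of 45 genes had a positive log2 change after exercise (50.1% over all genes), with a median of 0.13 against 0.00. With edgeR 0 of 45 were called (background 2.32%), limma-voom 0 (background 2.28%) and DESeq2 1 (background 7.29%). At an unadjusted p under 0.05 there were 13, all higher (background 9.15% higher, 22.8% in either direction). This count was 2 without WT sedentary a (7.43% of all genes), 3 without KO sedentary b (7.48%) and 4 without KO exercise c (6.15%). It was 6 without KO exercise a (8.61%), WT exercise a (6.79%) or WT exercise c (7.33%). It was 19 without KO exercise b or WT exercise b (10.1% each). With total counts in place of TMM factors, 1 was higher (2.47% of all genes) and 2 were lower, 33 were positive, and the median was 0.04 against -0.09 over all genes. Cox6a2 was the gene DESeq2 called (log2 0.20, adjusted p = 0.0255 with DESeq2), and it had the smallest unadjusted p in edgeR (log2 0.20, SE 0.0646, adjusted p = 0.115). In the values printed above, all exercise libraries but WT exercise b and KO exercise b lay clear above all 6 sedentary libraries, and KO exercise b was level with the highest of them. Cox7a2 (log2 0.18, SE 0.0674, adjusted p = 0.149) and Cox5b (log2 0.19, SE 0.0697, adjusted p = 0.15) followed.

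Isoform ratios were tested with exact two-sided permutation tests that shuffled libraries within the other factor (400 arrangements, smallest p 0.005), 4 pairs in 2 comparisons and 8 tests in all. None passed after Benjamini-Hochberg adjustment over the 8. The log2 ratio of Cox6a2 to Cox6a1 counts was 5.61, 5.76 and 5.75 in the WT sedentary libraries, 5.39, 5.67 and 5.70 in the KO sedentary, 6.17, 5.76 and 5.85 in the WT exercise and 6.46, 5.84 and 6.08 in the KO exercise libraries. All exercise libraries but WT exercise b lay above all sedentary libraries, with a mean difference of 0.38 (exact permutation p = 0.01, adjusted p = 0.08). The log2 ratio of Cox4i2 to Cox4i1 was lower after exercise by 0.40 on average (difference -0.40, exact permutation p = 0.02, adjusted p = 0.08), at 37 to 74 counts of Cox4i2 a library.

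For Cox7a1 to Cox7a2 the log2 ratio was 0.66, 0.84 and 0.84 in the WT sedentary libraries, 1.06, 0.98 and 0.83 in the KO sedentary, 0.69, 0.76 and 0.82 in the WT exercise and 1.03, 0.79 and 0.94 in the KO exercise libraries. It was higher in KO than in WT mice by 0.17 on average, with overlap (exact permutation p = 0.03, adjusted p = 0.08), and it differed by -0.03 between exercise and sedentary (exact permutation p = 0.59, adjusted p = 0.674). For Cox8b to Cox8a the difference was 0.13 between genotypes (exact permutation p = 0.31, adjusted p = 0.496) and 0.15 with exercise (exact permutation p = 0.24, adjusted p = 0.48). For Cox6a2 to Cox6a1 between genotypes it was 0.04 (exact permutation p = 0.775, adjusted p = 0.775), and for Cox4i2 to Cox4i1 0.08 (exact permutation p = 0.54, adjusted p = 0.674).

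**Figure D5:**
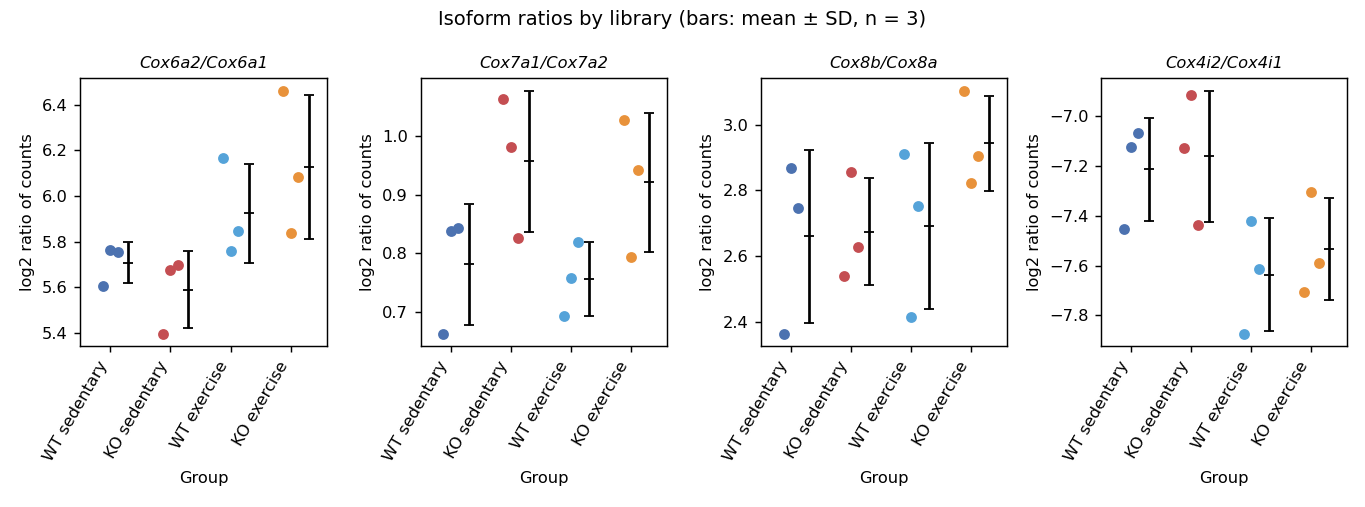
Log2 ratio of counts for 4 isoform pairs in each library by group, with mean ± SD (n = 3) as a bar; axes do not start at 0. The Cox6a2/Cox6a1 points lie higher and the Cox4i2/Cox4i1 points lower after exercise, by 0.38 and 0.40 on average, and the groups overlap in part.

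Genes that build or regulate the complexes were taken from a list of 38 assembly factors and associated proteins, all of them tested. The edgeR test called 0 of 38 in each of the 7 comparisons. At an unadjusted p under 0.05 1 of 38 was found in sedentary KO against WT (4.83% of all genes), 0 in exercised KO against WT (3.38%), 0 for exercise in WT (9.41%), 4 for exercise in KO (17.9%), 1 for the interaction (3.1%), 0 for the genotype average (4.5%) and 4 for the exercise average (22.8%). Atpif1, an inhibitor of complex V, stood at 14, 14.2 and 14.1 CPM in the WT sedentary libraries, 19.99, 19.2 and 18.4 in the KO sedentary, 10.8, 17.3 and 15.2 in the WT exercise and 13, 15.2 and 14.2 in the KO exercise libraries. All KO sedentary libraries lay above all other libraries (log2 0.44, SE 0.144, adjusted p = 0.986 against sedentary WT; log2 -0.44, SE 0.144, adjusted p = 0.181 for exercise in KO). The other 3 in exercised KO were higher: Lrpprc, which stabilises mitochondrial mRNAs (log2 0.29, SE 0.102, adjusted p = 0.204), Ndufa4, now counted as a complex IV subunit (log2 0.26, SE 0.0954, adjusted p = 0.205), and Tmem70, which helps assemble complex V (log2 0.26, SE 0.0937, adjusted p = 0.208). The list had a median log2 change of 0.06 there, against 0.17 for the 45 genes and -0.01 for all genes.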

How the data were processed

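RNA from soleus was sequenced in 12 libraries on a BGISEQ instrument, per the labels' protocols. The authors deposited whole-number counts per gene for each library in a single table, and 12 further columns of it with values by sample were left unused. STAR, featureCounts and mm10 are named in the submitters' processing notes, without versions, and no source used here gives the annotation or the strand setting. Column names give genotype and condition but match no sample label, so columns were assigned to groups only; the design text gives 3 mice per group, and p-values measure the spread between these libraries.

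Counts were filtered with filterByExpr (minimum count 10, 13886 genes kept), scaled with TMM and fitted with edgeR 4.0.16 (R 4.3.3), as glmQLFit (robust) with 4 group means, 8 residual degrees of freedom (common dispersion as a biological coefficient of variation, 0.168). Contrasts used glmQLFTest, adjusted by Benjamini and Hochberg over all tested genes at 0.05. Alternatives used DESeq2 1.42.0 and limma 3.58.1. CPM, SD and non-overlap were computed from TMM-scaled counts, and CPM per kilobase with lengths from GENCODE M21, which may not be the annotation used for counting. Word sharing between transcripts, exon overlaps and the CpG counts were added after low counts and windows had been seen.

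The genes and lists were chosen with earlier results of these data known. Named in full were core subunits, isoform pairs, the highest and lowest gene of each complex per length, called genes and, where fewer than 3 were called, the 3 with the smallest unadjusted p; Cox6c, Uqcr11 and Atp5k were singled out after their values were seen.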

Additional observations from a re-analysis of the deposited data

How the results depend on the processing

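The median log2 change of the 45 genes, the number called and the values of single genes were recomputed with DESeq2, RLE size factors, limma-voom, no filter on low counts, the compared groups alone and each library left out, and, chosen after seeing the data, with total counts in place of TMM factors, without the 3 libraries above 100 CPM of Alb and without the pair of libraries that carry 2 animal numbers each. The median for exercise in KO mice was 0.17 and became 0.0632 with total counts, by which the median of all genes fell to -0.12. This was the 1 median of 137 alternatives that moved by more than 1 within-group SD of the library median (0.0957), but small medians changed sign within that SD. For exercise in WT, 0.063 became -0.018 with total counts, and for KO against WT after exercise, 0.027 became -0.026 without KO exercise c, -0.015 without WT exercise b and -0.027 without the Alb libraries. The number called was 0 and became 1 for the exercise average with DESeq2 (Cox6a2, 0.204, adjusted p = 0.0255). DESeq2 was not rerun with libraries left out; edgeR called 0 each time. Leaving out 1 library each gave differences in the log2 ratio of Cox6a2 to Cox6a1 of -0.0407 to 0.116 between genotypes and 0.293 to 0.45 with exercise. The exercise difference passed the threshold without WT exercise b (exact permutation test, adjusted p = 0.04). It was smallest, at 0.232, without the pair of libraries that carry 2 animal numbers each. For Cox7a1 to Cox7a2 the differences with 1 library left out were -0.063 to 0.00172 with exercise. The cause was not tested. No paired analysis was possible because the count columns carry no replicate numbers. With the longest transcript as gene length, also chosen after seeing the data, 35 of 45 levels moved by less than the SD over the 12 libraries and 10 by more. Counts of 5 to 17 for Atp5l and 3 to 22 for Cox6b2 limit these 2 genes.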

Other observations

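Cox6c, a small subunit of complex IV, had a within-group SD of 0.281 on the log2 scale, against a median of 0.123 over the 45 genes. It stood at 129.98, 121 and 128 CPM in the WT sedentary libraries, 109, 79.3 and 143 in the KO sedentary, 143, 111 and 138 in the WT exercise and 108, 92.3 and 139 in the KO exercise libraries. The lowest and the highest value were both in the KO sedentary group, in b and in c, and KO exercise ranged almost as widely. No difference between groups passed the test for this gene (KO against WT averaged over both conditions, log2 -0.20, SE 0.142, adjusted p = 1). In its transcript with the highest share, 21.1% of the 50-base words also occur in another gene, and its exons overlap those of Vps13b on the opposite strand.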
